A study of Mus musculus with 12 samples.

Results

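The genes examined here encode the core of the synaptic vesicle release machinery: the SNARE genes Snap25, Stx1a, Vamp1 and Vamp2, the complexin genes Cplx1, Cplx2 and Cplx3, and the Munc13 genes Unc13a and Unc13c. They form a set picked by function, and all 9 were found by symbol among the 15759 entries of the table of normalized counts. All 9 were also among the 15369 genes that were tested, which had to average 10 or more normalized counts over the 12 libraries.

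The study sequenced poly-adenylated RNA from macrodissected whole cortex and whole cerebellum of a mouse model of spinocerebellar ataxia type 1 (SCA1), a polyglutamine disease of ataxin-1. It held 4 groups of 3 libraries. SCA1 KI mice (Atxn1 154Q/2Q) carried a knock-in allele with 154 glutamine codons, expressed from the endogenous Atxn1 locus in every cell that uses the gene, and an allele with 2 codons. The WT mice were their littermates, and both genotypes were C57BL/6J mice aged 12 weeks. The labels state that males were used for RNA-seq, whereas the methods describe males and females together. Cortex WT libraries bear the marks B, C and D, cortex SCA1 KI libraries A, E and F, cerebellum WT libraries 2, 4 and 6, and cerebellum SCA1 KI libraries 1, 3 and 5. The cerebellar dataset was an earlier one that the study analyzed again, so a difference between the regions and a difference between sequencing runs cannot be told apart.

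Reads on genes numbered 34103546 to 39927889 per cortical library and 29520855 to 51311309 per cerebellar library. Within a group, libraries differed in their reads by a chi-square of 7.54 to 36.6 per gene, so none was a copy of another. A pair of libraries stood apart from the others of their group. Cortex SCA1 KI A differed from E and F by 33.5 and 36.6 per gene, against 10.5 between E and F. Cerebellum WT 2 differed from 4 and 6 by 27.2 and 21.5, against 9.70 between 4 and 6. Atxn1 was not a differentially expressed gene (DEG) by limma in the cortex (log2 fold change, LFC, of −0.31, adjusted p = 0.132) or cerebellum (0.08, adjusted p = 0.837). Counts per gene do not separate its alleles.

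Transmitter release is driven by the SNARE complex, in which the vesicle protein synaptobrevin (encoded by Vamp1 and Vamp2) zips up with syntaxin (Stx1a) and SNAP-25 (Snap25) of the plasma membrane. Munc13 proteins prime vesicles by opening syntaxin, and complexins bind the assembled complex and both clamp it and speed its fusion when calcium arrives. Neurons differ in their paralogs: Vamp1 is known from fast-firing neurons of the brainstem, the spinal cord and inhibitory circuits, Unc13c from cerebellar granule cells, and Cplx3 from the retina and the deepest cortical neurons.

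The DNA upstream of 5 of these genes, picked for contrasts described below, is shown. Snap25 and Cplx2, whose genotype change differed between the regions, are not among them. Stx1a, Vamp1 and Cplx3 were the members lower in the SCA1 KI cerebellum, and Unc13a and Unc13c are Munc13 paralogs with opposite regional patterns. Each is the 250 bases before the RefSeq start of the gene on GRCm38.p6, written 5′ to 3′ on the strand of the gene. Capitals mark a GC box (GGGCGG on either strand) or an E-box (CACGTG). The windows are chr5:135023232-135023481 (plus strand) for Stx1a, chr6:125215331-125215580 (plus) for Vamp1, chr9:57606282-57606531 (minus) for Cplx3, chr8:71671758-71672007 (minus) for Unc13a and chr9:73969038-73969287 (minus) for Unc13c.
Stx1a: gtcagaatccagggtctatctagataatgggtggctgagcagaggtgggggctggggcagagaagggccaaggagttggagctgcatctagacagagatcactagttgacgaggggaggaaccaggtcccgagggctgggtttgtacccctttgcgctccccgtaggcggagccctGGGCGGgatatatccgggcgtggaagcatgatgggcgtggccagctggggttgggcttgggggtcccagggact
Vamp1: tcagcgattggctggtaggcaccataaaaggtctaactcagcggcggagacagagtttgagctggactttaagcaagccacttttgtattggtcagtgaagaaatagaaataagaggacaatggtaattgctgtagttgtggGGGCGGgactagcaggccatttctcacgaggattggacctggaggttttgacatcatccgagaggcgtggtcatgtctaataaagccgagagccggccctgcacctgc
Cplx3: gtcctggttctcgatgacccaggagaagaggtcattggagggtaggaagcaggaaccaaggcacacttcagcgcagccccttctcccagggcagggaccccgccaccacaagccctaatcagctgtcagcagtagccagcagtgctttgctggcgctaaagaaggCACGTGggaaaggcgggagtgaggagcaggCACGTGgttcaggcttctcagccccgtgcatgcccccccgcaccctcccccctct
Unc13a: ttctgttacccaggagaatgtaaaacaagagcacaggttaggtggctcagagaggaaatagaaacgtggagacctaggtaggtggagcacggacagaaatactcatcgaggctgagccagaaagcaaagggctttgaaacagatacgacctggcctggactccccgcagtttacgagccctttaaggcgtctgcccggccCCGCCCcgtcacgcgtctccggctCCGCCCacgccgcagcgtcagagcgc
Unc13c: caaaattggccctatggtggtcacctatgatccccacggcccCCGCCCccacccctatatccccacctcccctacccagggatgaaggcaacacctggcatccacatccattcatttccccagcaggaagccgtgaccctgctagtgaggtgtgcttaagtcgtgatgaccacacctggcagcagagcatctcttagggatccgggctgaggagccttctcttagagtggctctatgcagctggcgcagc

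RefSeq windows were at hand for 7 of the 9 members, all but Snap25 and Vamp2. That of Cplx2 lies 68793 bases from the GENCODE start of the gene, and it held none of the motifs below. A GC box was found in 5 of the 7 (Cplx1, Stx1a, Vamp1, Unc13a and Unc13c, printed as CCGCCC where it lies on the other strand), and in 32.7% of all 32851 windows. Unc13a was the member with 2 of them. The E-box CACGTG was found in 1 of the 7, Cplx3, with 2 copies, and in 6.02% of all windows. Neither octamer bound by Capicua, the repressor that partners ataxin-1 (TGAATGAA and TCAATGAA, both strands), was in any of the 7 windows, and 1.70% of all windows held either. The cAMP response element TGACGTCA was likewise in 0 of the 7, and in 1.55% of all windows. Matches of letters describe these windows only, and the data hold no measurement of binding.

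In the WT brain the members differed widely in level and by region. Per kilobase of exon, Snap25 was the most abundant in the WT cortex (22836 ± 1199 normalized counts per kilobase, SD, n = 3), followed by Cplx2 (15208 ± 1222), Cplx1 (13763 ± 368), Vamp2 (13350 ± 464), Stx1a (5088 ± 162), Unc13a (1609 ± 104), Vamp1 (767 ± 19.0), Unc13c (192 ± 21.0) and Cplx3 (181 ± 45.1). Of the neighbours in this order, the libraries of Cplx1 and Vamp2 overlapped, as did those of Unc13c and Cplx3. In the WT cerebellum Snap25 was again the highest (16617 ± 1078 per kilobase), ahead of Cplx1 (9976 ± 1092), Cplx2 (8282 ± 831), Vamp2 (6719 ± 304), Vamp1 (1453 ± 385), Unc13c (1223 ± 34.1), Unc13a (585 ± 57.2), Stx1a (64.4 ± 29.4) and Cplx3 (11.9 ± 4.48). There the libraries overlapped between Vamp1 and Unc13c alone. Dividing by the longest transcript in place of all exon bases put Vamp2 ahead of Cplx1 and Cplx2 in all 4 groups. In the SCA1 KI cortex it also put Vamp2 ahead of Snap25 (22045 against 20344 per kilobase).

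Between the regions, limma called all 9 members in WT mice, 7 higher and 2 lower in the cortex (61.7% of tested genes were called, 31% higher and 30.7% lower). Stx1a had the largest difference, with an LFC of 6.39 for cortex minus cerebellum (adjusted p = 1.08e-10), followed by Cplx3 with 3.93 (adjusted p = 2.69e-07). Unc13a (1.46), Vamp2 (0.99), Cplx2 (0.88), Cplx1 (0.47) and Snap25 (0.46) were also higher in the cortex. Unc13c was lower there (LFC −2.68, adjusted p = 2.38e-06), as was Vamp1 (LFC −0.89, adjusted p = 7.82e-05). In SCA1 KI mice, 4 members were called higher and 2 lower in the cortex (62.4% of tested genes were called, 32% higher and 30.5% lower). Snap25 (LFC −0.12, 95% interval −0.28 to 0.03), Cplx1 (0.08, −0.10 to 0.25) and Cplx2 (0.05, −0.21 to 0.31) did not pass between the SCA1 KI regions.

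**Figure D1:**
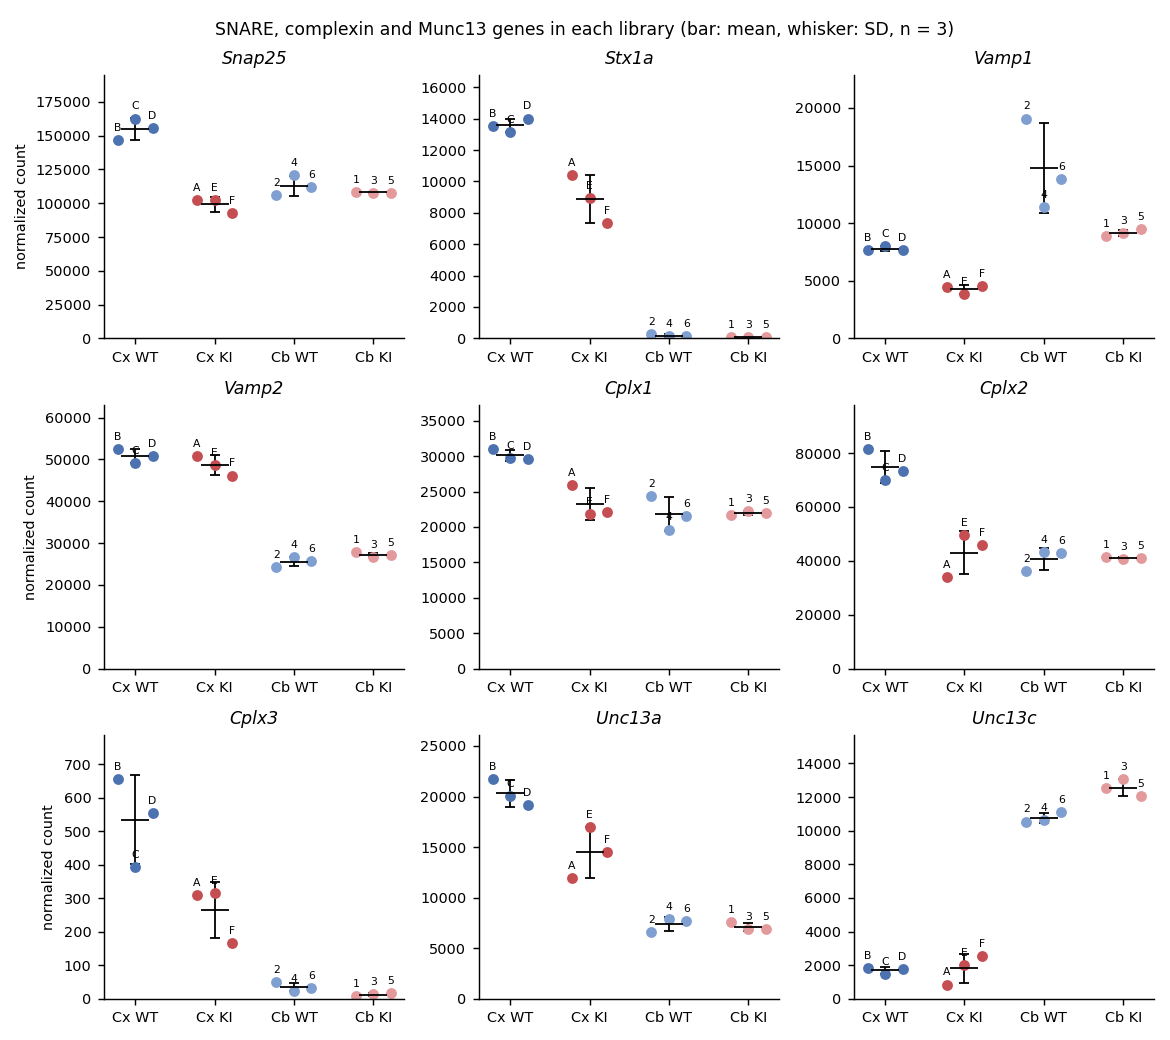
Normalized counts of the 9 genes (vertical axes, linear and starting at 0) in each library of the cortex (Cx) and cerebellum (Cb) of WT and SCA1 KI (KI) mice, with each point marked by its library. Bars are group means and whiskers SD (n = 3). Snap25, Stx1a, Vamp1, Cplx1, Cplx2, Cplx3 and Unc13a lie lower in all 3 SCA1 KI cortices than in all 3 WT cortices, and Stx1a, Vamp1 and Cplx3 do so in the cerebellum.

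The next question was whether genotype moved these genes within a region. In the SCA1 KI cortex 6 of the 9 members were downregulated and 0 were upregulated, where 15.6% of tested genes were DEGs (10.8% downregulated and 4.82% upregulated). A DEG had an adjusted p below 0.05 and an LFC beyond 0.25 in either direction. The median LFC of the members was −0.62, against −0.0028 over all tested genes. The SCA1 KI libraries lay wholly below the WT libraries for 7 members, as they did for 18% of tested genes (13% lay wholly above). In the SCA1 KI cerebellum 3 of the 9 members were downregulated and 0 upregulated, where 5.36% of tested genes were DEGs (4.44% downregulated and 0.917% upregulated). The SCA1 KI libraries lay wholly below the WT libraries for 3 members and above them for 1, against 17.5% and 14.3% of tested genes. Their median LFC there was −0.05, against −0.0049 over all tested genes. At an unadjusted p under 0.05, limma likewise had 0 members higher in either region, as did edgeR and DESeq2, where 30.5% of tested genes had such a p in the cortex and 17.3% in the cerebellum in either direction. The 3 cerebellar calls kept their direction but were lost when the cerebellum was fitted on its own (0 members, with 3 lower and 1 higher at an unadjusted p under 0.05) and without SCA1 KI library 3 (0), and 1 was left without SCA1 KI library 1. By edgeR on the recovered reads 2 of them passed.

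**Figure D2:**
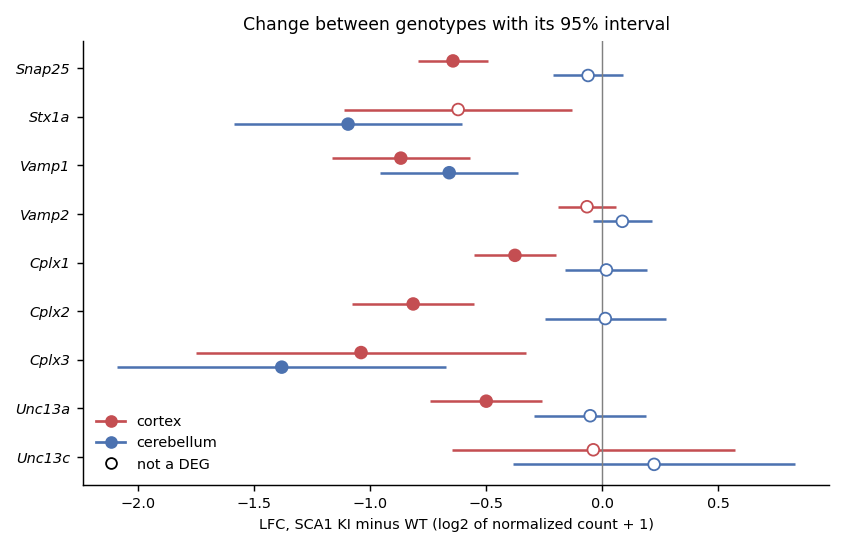
LFC of SCA1 KI minus WT (horizontal axis, log2 of normalized count + 1) for each gene in the cortex (red) and cerebellum (blue), with lines for 95% intervals from limma and open circles for genes that were not DEGs. Filled circles lie left of zero in the cortex for 6 genes and in the cerebellum for Stx1a, Vamp1 and Cplx3.

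Snap25 encodes the plasma-membrane SNARE that contributes a pair of helices to the complex (chr2:136713453-136782428, plus strand, GRCm38). The WT cortices B, C and D held 146505, 162700 and 156022 normalized counts, and the SCA1 KI cortices A, E and F 102725, 102077 and 93030. Every SCA1 KI cortex was lower than every WT cortex, and expression fell by 36.0% (LFC −0.64 ± 0.07 SE, adjusted p = 7.02e-05, limma). The WT cerebella 2, 4 and 6 held 106059, 120604 and 111870, and the SCA1 KI cerebella 1, 3 and 5 held 108596, 107687 and 107793. These overlapped, with an LFC of −0.06 (95% interval −0.21 to 0.09, adjusted p = 0.748). The change was lower in the cortex than in the cerebellum by 0.58 on the log2 scale (difference −0.58, adjusted p = 0.00362), where 8.15% of tested genes were called for this difference (3.26% higher and 4.89% lower in the cortex). It was called for 2 members, Snap25 and Cplx2. Without cortex SCA1 KI A it was −0.61 and without cerebellum WT 2 −0.54, both past the threshold.

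Stx1a, the gene of syntaxin-1A, which Munc13 opens before the complex forms (chr5:135023482-135051100, plus strand), was far higher in the cortex than in the cerebellum. WT cortices B, C and D held 13535, 13149 and 14011 normalized counts, and SCA1 KI cortices A, E and F 10434, 8916 and 7362. All 3 SCA1 KI cortices were below the WT cortices. With an SE pooled over the spread of all 4 groups, the cerebella included, the LFC of −0.62 ± 0.23 did not pass (adjusted p = 0.0795, limma). It passed when each region was fitted on its own (adjusted p = 0.0103), without cerebellum WT 2 (0.00308) and by edgeR on the recovered reads (0.0391), and it missed by DESeq2 (0.113). WT cerebella 2, 4 and 6 held 262, 131 and 122, and SCA1 KI cerebella 1, 3 and 5 held 79.2, 65.2 and 81.3. Library 2 was the highest, and all SCA1 KI cerebella were below all WT cerebella, with an LFC of −1.10 ± 0.23 (adjusted p = 0.0133). Without library 2 the cerebellar LFC was −0.75 (adjusted p = 0.00699). The cortical and cerebellar changes of Stx1a were not shown to differ (difference 0.47, 95% interval −0.22 to 1.17, adjusted p = 0.443).

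Vamp1 encodes synaptobrevin-1 (chr6:125215551-125245964, plus strand) and was downregulated in both regions. WT cortices B, C and D held 7705, 8023 and 7674 normalized counts, and SCA1 KI cortices A, E and F 4494, 3834 and 4522. Expression fell by 45.2% with no overlap (LFC −0.87 ± 0.14, adjusted p = 0.000905, limma). WT cerebella 2, 4 and 6 held 19085, 11435.5 and 13812, and SCA1 KI cerebella 1, 3 and 5 held 8857, 9128 and 9453. The SCA1 KI cerebella were close to each other and below each WT cerebellum, of which library 2 was the highest (LFC −0.66 ± 0.14, adjusted p = 0.0136). Without library 2 the LFC was −0.46 (adjusted p = 0.0131). The regions were not shown to differ in this change (difference −0.21, 95% interval −0.63 to 0.21, adjusted p = 0.598).

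Vamp2 encodes synaptobrevin-2, the main vesicle SNARE of forebrain synapses (chr11:69088490-69092384, plus strand). WT cortices B, C and D held 52574, 49041 and 50939 normalized counts, and SCA1 KI cortices A, E and F 50914, 48751 and 46165. WT cerebella 2, 4 and 6 held 24382, 26688 and 25707, and SCA1 KI cerebella 1, 3 and 5 held 27767.5, 26644 and 27079. Genotypes overlapped in both regions, with a cortical LFC of −0.07 (95% interval −0.19 to 0.06, adjusted p = 0.493, limma) and a cerebellar LFC of 0.09 (−0.04 to 0.21, adjusted p = 0.511). A change of the size measured for Vamp1 lay outside the intervals of Vamp2 in both regions.

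Cplx1 (chr5:108518554-108550024, minus strand) and Cplx2 (chr13:54371349-54383917, plus strand) encode the main complexins of the brain. For Cplx1, WT cortices B, C and D held 31057, 29683 and 29641 normalized counts, and SCA1 KI cortices A, E and F 25878, 21888.5 and 22056. Expression of Cplx1 fell by 23.0% in the SCA1 KI cortex, with no overlap (LFC −0.38 ± 0.08, adjusted p = 0.00673, limma). For Cplx2, the WT cortices held 81645, 69983 and 73200, and the SCA1 KI cortices 33943, 49458.5 and 45726. Cplx2 fell by 43.2%, also with no overlap, and library A was the lowest (LFC −0.82 ± 0.12, adjusted p = 0.000579). Without A the LFC of Cplx2 was −0.65 (adjusted p = 0.000614) and that of Cplx1 −0.46 (adjusted p = 0.00217).

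In the cerebellum neither of these complexins was a DEG. For Cplx1, WT cerebella 2, 4 and 6 held 24382, 19641 and 21489 normalized counts, and SCA1 KI cerebella 1, 3 and 5 held 21749, 22294 and 22038. For Cplx2 the WT cerebella held 36093, 43422 and 42927, and the SCA1 KI cerebella 41429, 40664 and 41064. Genotypes overlapped for both genes, with an LFC of 0.02 for Cplx1 (95% interval −0.16 to 0.20) and 0.01 for Cplx2 (−0.25 to 0.28). The change of Cplx2 was lower in the cortex than in the cerebellum (difference −0.83, adjusted p = 0.0101, limma). That of Cplx1 was −0.39, just short of the threshold (adjusted p = 0.0544), and it passed without cortex SCA1 KI A (−0.47, adjusted p = 0.0158) and without cerebellum WT 2 (−0.48, adjusted p = 0.0163). Over all fits with 1 library left out, its adjusted p ran from 0.0158 to 0.124.

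Cplx3 encodes a complexin with a lipid anchor (chr9:57599992-57606281, minus strand) and had by far the fewest reads of the members. WT cortices B, C and D held 656, 392 and 556 normalized counts, and SCA1 KI cortices A, E and F 308, 316 and 168. SCA1 KI cortices were below WT cortices by an LFC of −1.04 ± 0.33, close to the threshold (adjusted p = 0.0454, limma), and with 1 library left out the adjusted p ran from 0.0303 to 0.156. WT cerebella 2, 4 and 6 held 49.3, 23.2 and 32.6, and SCA1 KI cerebella 1, 3 and 5 held 8.43, 13.05 and 16.5, from 10, 19 and 17 reads. The cerebellar LFC was −1.38 ± 0.33 (adjusted p = 0.0271), and without library 2 it was −1.11 and did not pass (adjusted p = 0.112). The pseudocount of 1 understates such changes at levels this low.

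Unc13a encodes Munc13-1, the priming factor of most forebrain synapses (chr8:71624417-71671757, minus strand). Its exons overlap those of Colgalt1, on the other strand, by 495 bases, and reads from that stretch cannot be assigned without strand. WT cortices B, C and D held 21740, 20046 and 19151 normalized counts, and SCA1 KI cortices A, E and F 11951, 17028 and 14496. The SCA1 KI cortices were all lower, A the lowest, and expression fell by 29.3% (LFC −0.50 ± 0.11, adjusted p = 0.00788, limma). Without A the LFC was −0.37 (adjusted p = 0.0217), and with each library's dependence on length and GC content taken out it was −0.26 (adjusted p = 0.0321). WT cerebella 2, 4 and 6 held 6564, 7902 and 7703, and SCA1 KI cerebella 1, 3 and 5 held 7551, 6935 and 6852. Those overlapped, with an LFC of −0.05 (95% interval −0.29 to 0.19, adjusted p = 0.881). The difference between the regions was −0.45 and did not pass (adjusted p = 0.110).

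Unc13c encodes Munc13-3 (chr9:73479422-73968966, minus strand). WT cortices B, C and D held 1831, 1477 and 1745 normalized counts, and SCA1 KI cortices A, E and F 849, 1997 and 2571.5. Library A was below all WT cortices whereas E and F were above them, and the LFC was −0.04 with a wide 95% interval of −0.65 to 0.57 (adjusted p = 0.944, limma). Without A it was 0.43 and passed (adjusted p = 0.0173), so its cortical value rests on that library. WT cerebella 2, 4 and 6 held 10546, 10628 and 11101.5, and SCA1 KI cerebella 1, 3 and 5 held 12559, 13081 and 12062. Every SCA1 KI cerebellum was higher than every WT cerebellum, but with an LFC of 0.22 (−0.39 to 0.83) Unc13c was not a DEG there (adjusted p = 0.771). This interval uses a spread pooled over all 4 groups, the widely spread SCA1 KI cortices among them. Fitted on the cerebellum alone, Unc13c had an adjusted p of 0.0321 but an LFC under the limit of 0.25.

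Paralogs were compared within each library, where the size factor cancels. Log2 of Vamp1 to Vamp2 averaged −2.70 in WT and −3.51 in SCA1 KI cortices, a difference of −0.80, and −0.82 and −1.57 in WT and SCA1 KI cerebella, a difference of −0.75. In each region all SCA1 KI ratios were below all WT ratios. Cplx1 to Cplx2 averaged −1.31 in WT and −0.87 in SCA1 KI cortices, with the SCA1 KI ratios all above the WT ratios, and −0.90 in both genotypes in the cerebellum. Without A the cortical difference of 0.44 was 0.20.

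Unc13c to Unc13a was 0.55 in WT and 0.82 in SCA1 KI cerebella with no overlap, and −3.60 and −3.13 with overlap in the cortex. With 3 libraries against 3, a 2-sided exact permutation test cannot go below p = 0.1, so none of the 6 comparisons could pass. The 4 without overlap reached that value (adjusted p = 0.15 over the 6).

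**Figure D3:**
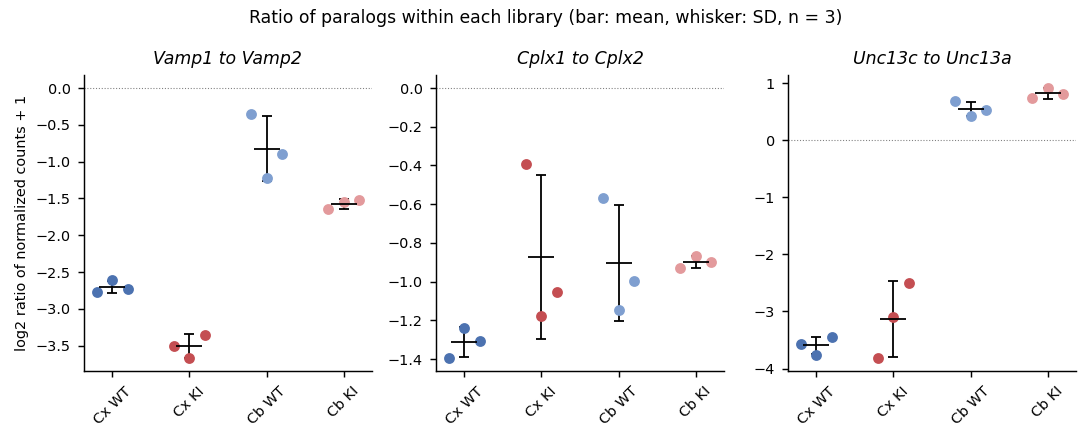
Log2 ratio of paralogs within each library (vertical axes, log2 of normalized count + 1, each panel on its own range) in the cortex (Cx) and cerebellum (Cb) of WT and SCA1 KI (KI) mice. Points are libraries, bars means and whiskers SD (n = 3), and the dotted line marks equal counts. Vamp1 to Vamp2 lies lower in all SCA1 KI libraries of each region, and Cplx1 to Cplx2 lies higher in the SCA1 KI cortices alone.

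Summed over the 3 complexin genes per kilobase of exon, WT cortices held 27894 to 30977 and SCA1 KI cortices 18814 to 20143 normalized counts per kilobase, whereas the WT and SCA1 KI cerebella held 17792 to 18539 and 18345 to 18441. Cplx1 made up 45.8% to 48.6% of this sum in WT cortices and 49.6% to 62.8% in SCA1 KI cortices, the highest in A. Cplx3 made up at most 0.717% in any library.

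Markers of cell types were read alongside the members, since in whole tissue fewer cells of a type and less RNA per cell cannot be told apart. Their cortical calls stand beside 10.8% of all tested genes downregulated and 4.82% upregulated there. In the cortex the summed markers of excitatory neurons held 92705 to 94328 normalized counts in WT and 62625 to 74961 in SCA1 KI libraries, and 3 of 8 were downregulated (Rorb, Cux2 and Slc17a7). Summed interneuron markers held 49775 to 52880 and 31478 to 41942, with 2 of 10 downregulated (Pvalb and Gad1). Pan-neuronal markers held 149949 to 153630 and 149348 to 153864, with 2 of 8 upregulated (Uchl1 and Stmn2) and 1 downregulated (Rbfox3). Astrocyte markers held 54962 to 60371 and 36495 to 47259, with 4 of 6 downregulated. The list written for Purkinje cells of the cerebellum held 46890 to 49857 and 27412 to 31701, with 4 of 8 downregulated and 1 upregulated. In the cortex this list does not count such cells. The list for brainstem, midbrain and cerebellar nuclei held 1732 to 2075 in WT and 2263 to 3955 in SCA1 KI cortices. Its Pou4f1 was at 2.21 to 6.83 in WT cortices and at 217 to 372 in SCA1 KI cortices, the only called gene of 7. The part of these markers in the cortical changes of the release genes was not tested.

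In the cerebellum granule cell markers, of which 0 of 8 were called, summed to 159257 in library 2 and to as much as 227060 in the other WT cerebella, against 216718 to 225234 in SCA1 KI. The list for brainstem, midbrain and cerebellar nuclei summed to 8473 to 13845 in WT and 6059 to 6435 in SCA1 KI libraries. Where 4.44% of all tested genes were downregulated, 2 of its 7 were. These were Slc17a6 (6803, 2878 and 3911 normalized counts in WT 2, 4 and 6, and 982, 1117 and 1310 in SCA1 KI 1, 3 and 5) and Pou4f1 (139, 46.4 and 83.9, and 2.53, 6.87 and 10.6). Of 10 markers listed for forebrain interneurons, Sst (864, 368 and 528, and 56.4, 41.2 and 72.6) and Vip (130, 81.8 and 81.5, and 2.53, 0 and 1.94) were downregulated. Library 2 was the highest for all 4 of these, as it was for Vamp1, Stx1a and Cplx3. The order was 2, 6, 4 for Vamp1, Cplx3, Slc17a6, Sst and Pou4f1, and 2, 4, 6 for Stx1a and Vip. Among the WT cerebella, summed oligodendrocyte and microglial markers were also highest in library 2, and summed granule and Purkinje cell markers were lowest there. Over the SCA1 KI cerebella these 4 markers stood at 0 to 28.9% of the WT mean, and Cplx3 at 24.0% to 47.0%, Stx1a at 38.0% to 47.4% and Vamp1 at 59.9% to 64.0%. The part of these neurons in the fall of the release genes was not tested. Choroid plexus markers ranged from 576 to 74178 in SCA1 KI and from 18781 to 71012 in WT cerebella, with 0 of 6 called. The summed list of cortical excitatory neurons lay wholly higher in the SCA1 KI cerebella, as did 14.3% of single tested genes. It held 18992, in library 2, to 25361 in WT and 25825 to 28533 in SCA1 KI libraries. Of its 8 genes, 1 was upregulated and 1 downregulated (Rorb and Tbr1), where 0.917% and 4.44% of tested genes were. This list and that of deep layer 6b were written for the cortex and do not count such cells in the cerebellum. Its Fezf2 had at most 3 reads in any cerebellar library. Other summed lists lay wholly lower in the SCA1 KI cerebella, as did 17.5% of single tested genes. Deep layer 6b markers held 3814 to 3931 in WT and 3524 to 3770 in SCA1 KI libraries (0 of 6 called). Oligodendrocyte markers held 119160 to 169839 in WT, highest in library 2, and 94992 to 100689 in SCA1 KI libraries (Opalin called of 7). Purkinje cell markers held 334390, in library 2, to 416907 and 294199 to 331034 (Rgs8 and Gng13 called of 8). Astrocyte markers held 101015 to 103551 and 90220 to 93321 (Aldh1l1 called of 6), and microglial markers 4721 to 6093 and 4325 to 4519 (P2ry12 called of 6). The summed list written for forebrain interneurons held 60464 to 61102 and 51063 to 52830. The part of these lists was not tested either.

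**Figure D4:**
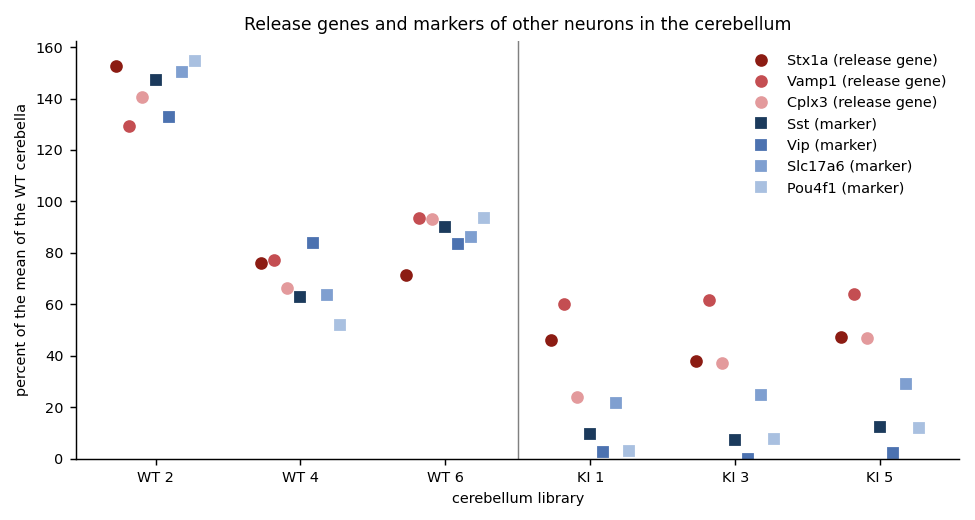
Normalized counts of Stx1a, Vamp1 and Cplx3 (circles) and of Sst, Vip, Slc17a6 and Pou4f1 (squares) in each cerebellar library, as a percent of the mean of the 3 WT cerebella (vertical axis). All 7 genes are shown because they were downregulated in the SCA1 KI cerebellum, so their lower SCA1 KI values follow from that choice. The other markers of their lists were not DEGs there and are not shown. All 7 are highest in WT library 2 and lower in each SCA1 KI library than in each WT library.

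Around these members, 62 further genes of the release machinery were examined, of which 59 were tested. In the SCA1 KI cortex 19 were downregulated and 1 upregulated (Ppfia1), with a median LFC of −0.11, where 10.8% of all tested genes were downregulated and 4.82% upregulated. Priming and active zone genes made up 13 of the 19, out of 23 tested, with a median LFC of −0.42. Among them were Rph3a, a Rab3 effector (24659 normalized counts in WT and 12676 in SCA1 KI, LFC −0.97, adjusted p = 7.67e-06, limma), Rims3 (2597 and 1340, LFC −0.95, adjusted p = 5.64e-05) and Bsn, the gene of the scaffold Bassoon (27910 and 14151, LFC −0.99, adjusted p = 0.000179). Ppfia1 encodes a liprin, a scaffold of the same zone.

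Of 13 tested chaperones, clamps and disassembly genes, 3 were downregulated in the cortex, again beside 10.8% of all tested genes. These were Prrt2 (LFC −0.61, adjusted p = 0.000989, limma), Napa, which helps to take used SNARE complexes apart (−0.38, adjusted p = 0.00400), and Stxbp5l, which encodes a tomosyn that sequesters syntaxin (−0.50, adjusted p = 0.00504). Of 10 calcium sensors 3 were downregulated, Syt2 (1934 normalized counts in WT and 1021 in SCA1 KI, LFC −0.91, adjusted p = 3.05e-05), Syt7 (−0.49, adjusted p = 0.000624) and Syt1 (88185 and 68979, LFC −0.36, adjusted p = 0.00213). Of the 13 tested SNARE relatives examined here, 0 passed by limma, edgeR or DESeq2 in the cortex, and their median LFC was 0.02. By each of these tools 4 had an unadjusted p under 0.05, as 30.5% of all tested genes did by limma. By limma these were Stx7 (LFC 0.13), Stx12 (0.22), Stx16 (0.15) and Vamp4 (0.18), all higher in SCA1 KI cortices, and Stx12 had an adjusted p of 0.0231 but missed the LFC limit.

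In the SCA1 KI cerebellum 7 of the 59 were downregulated and 1 upregulated, with a median LFC of −0.03, where 4.44% and 0.917% of all tested genes were. The latter was Cadps2, a dense-core vesicle priming factor, which rose from 11962 to 18198 (LFC 0.63, adjusted p = 0.0102, limma). Its WT cerebella ranged from 9046 to 14172. Without WT library 2 its LFC was 0.44 (adjusted p = 0.00541), and fitted on the cerebellum alone its adjusted p was 0.0495. In the cortex Cadps2 fell from 6571 to 4284 (LFC −0.62, adjusted p = 0.00422), and the changes in the regions differed (−1.25, adjusted p = 0.00124). The largest falls were in Baiap3, a Munc13 relative (1043 to 82.4, LFC −3.63, adjusted p = 0.00146), and Doc2a, a calcium sensor (228 to 24.7, LFC −3.03, adjusted p = 2.91e-05). Among the cerebella both were highest in WT library 2, at 1487 for Baiap3 and 360 for Doc2a. In the cortex Baiap3 was at 158 to 215 in WT libraries and at 164, 418 and 1160 in SCA1 KI A, E and F (LFC 1.15, adjusted p = 0.156).

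Stxbp6, which encodes a soluble SNARE-binding protein, fell from 1313 to 582 in the cerebellum (LFC −1.12, adjusted p = 0.00167, limma). Genes downregulated in both regions were Unc13d, Rimbp2 and Syt7. Unc13d, the Munc13 of blood cell granules, had LFCs of −1.11 in the cortex and −1.38 in the cerebellum. Its cortical counts were low, averaging 46.6 in WT and 21.0 in SCA1 KI libraries. Rimbp2, which links active zones to calcium channels, had −0.46 and −0.87, and Syt7 −0.49 and −0.29. With 1 library left out, the adjusted p ran from 0.0114 to 0.143 for Rimbp2 in the cortex and from 0.0112 to 0.146 for Syt7 in the cerebellum. Rab3d was the remaining cerebellar DEG of the lists.

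**Figure D5:**
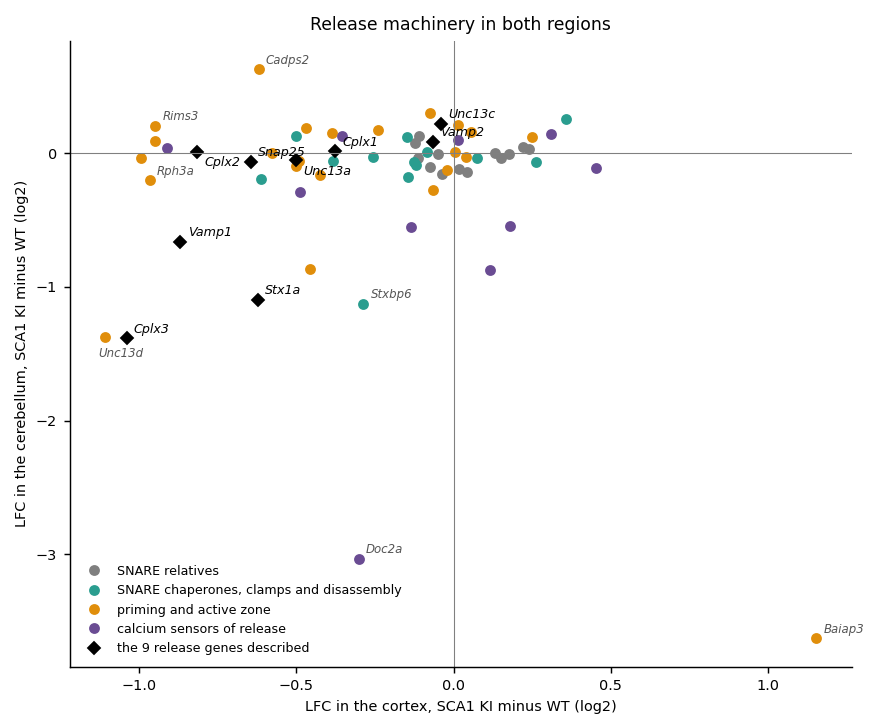
LFC of SCA1 KI minus WT in the cortex (horizontal axis) against the cerebellum (vertical axis), both on the log2 scale, for the 9 release genes (black diamonds) and 59 other genes of the release machinery (circles colored by list). The 13 priming and active zone genes downregulated in the cortex lie left of zero, and Cadps2 is at −0.62 in the cortex and 0.63 in the cerebellum.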

How the data were processed

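Poly-adenylated RNA of cortex and cerebellum was sequenced as paired ends in 12 libraries. The authors used STAR for alignment to mm10, featureCounts for counting per gene and DESeq2 for normalization (versions not given in the sources used here). They deposited normalized counts, a signal that equals reads over the size factor of each library. Whole reads could be recovered for 100% of the values of every library (tolerance 0.01 read) and entered the count tests. Library medians moved by at most 0.0175 on the log2 scale when centred within a region. All value columns were used. Their names give region and genotype and a mark that matches no replicate number, so libraries are named by these marks.

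Log2(normalized count + 1) was fitted over all 12 libraries with 4 group means by limma 3.58.1, with an intensity trend in its empirical Bayes step (R 4.3.3). Genes averaging under 10 were left out, and 15369 stayed. Adjusted p are Benjamini-Hochberg values over all of these. The study itself tested counts with DESeq2 under the thresholds used here for DEGs. Intervals are 95% and use 12.6 degrees of freedom. Paralog ratios were compared by 2-sided exact permutation tests. Alternatives were pseudocounts of 0.5 and 5, all genes, genes averaging 100 or more, separate fits per region, median centring, edgeR 4.0.16, DESeq2 1.42.0, calls on the adjusted p alone, removal of trends on length and GC content, and each library left out in turn. A fit without cortex SCA1 KI A and cerebellum WT 2 was chosen after the data were seen. The fits were tested on simulated data.

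The members and all lists were chosen with earlier results of these data known. Besides the members, genes were named if they were, in a list of release genes and a region, among the 3 DEGs with the smallest p, DEGs in both regions, or the 2 genes whose pattern was most like that of a member. Ppfia1, Rab3d, Stx7, Stx12, Stx16 and Vamp4 were named after their values were seen, as were the single marker genes. A few further genes, listed or picked by this rule, are left unreported here. Coordinates and exon lengths are from GENCODE vM21 on GRCm38, the assembly of mm10, and 15009 of the 15759 entries matched by symbol. The series calls the samples biological replicates.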

Additional observations from a re-analysis of the deposited data

Results flagged for a closer look

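A test of the difference between the regions, the change in the cortex minus that in the cerebellum from limma, passed for 2 members of the 9. It was −0.58 for Snap25, lower in 3 of 3 SCA1 KI cortices and overlapping in the cerebellum, and −0.83 for Cplx2, with the same pattern. Among the other release genes named, it passed with a lower value in the cortex for Stxbp5l (−0.64), Cadps2 (−1.25), Rims3 (−1.16), Bsn (−0.96), Rph3a (−0.77), Syt1 (−0.49) and Syt2 (−0.95). It passed with a lower value in the cerebellum for Stxbp6 (0.84), Baiap3 (4.78) and Doc2a (2.73), all of which were highest in cerebellum WT library 2 among the cerebella. All 12 libraries entered these tests, and 8.15% of tested genes passed. The value for Baiap3 includes its cortical LFC of 1.15, with SCA1 KI cortices spread from 164 to 1160. Single genes were not searched for deviating samples, since groups of 3 are too small for it.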

How the results depend on the processing

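The 6 cortical members lower in SCA1 KI mice numbered 5 to 7 with 1 library left out and 6 to 7 otherwise, and the 7 higher and 2 lower between WT regions were so in every fit. No member was higher in the SCA1 KI cortex except without library A, where the count was 0 to 1 over the fits that left out 1 library and 1 (Unc13c) without A and cerebellum WT 2 together. The 3 cerebellar members numbered 0 to 3 with 1 library left out and 0 with each region fitted on its own. Over all tested genes that separate fit called 220 higher and 618 lower in the cerebellum, against 141 and 683 in the main fit. Without A and WT 2 the members with a lower change in the cortex rose from 2 to 4, with Vamp1 (−0.45, adjusted p = 0.0465) and Cplx1 (−0.56, adjusted p = 0.00145) added. The sign turned for Unc13c in the cortex by edgeR (0.12), by DESeq2 (0.10), with length and GC trends removed (0.084), without WT B (0.025), without A (0.43) and without A and WT 2 (0.43), with a range of −0.37 to 0.43 over fits without 1 library. Its difference between regions was 0.21 without A and 0.22 without both, and −0.59 to 0.21 over fits without 1 library. It also turned in the cerebellum for Cplx1 without WT 4 (range −0.055 to 0.10 over fits without 1 library), for Cplx2 without WT 2 (range −0.073 to 0.061) and without both (−0.073), for Unc13a with the trends removed (0.042), and for the difference of Cplx3 without both (−0.071). None of these had been called, and the cause was not tested. The upregulated cortical gene of the other release lists was 0 with regions fitted apart, 2 by edgeR, 3 by DESeq2, 2 on the adjusted p alone, 4 without both libraries and 1 to 4 with 1 left out, and the 1 upregulated in the cerebellum was 3 with the trends removed. The 3 called chaperone, clamp and disassembly genes of the cortex were 5 by DESeq2. Removing those trends also turned 741 higher and 1661 lower DEGs into 1029 and 1310 in the cortex, and 141 and 683 into 536 and 587 in the cerebellum. No paired analysis was possible because the columns carry no replicate number of the labels. Cplx3, at 8.43 to 49.3 normalized counts in the cerebellum, had the lowest counts of the members, which limits its precision.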

Other observations

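The genes whose pattern was most like that of each member were sought over the 12 libraries, after subtraction of the mean of each region from log2(normalized count + 1). All points share the genotype contrast of their libraries, so the coefficients describe these libraries and carry no test. Snap25 was most like Kctd1 (Pearson r = 0.992) and Dusp14 (0.982), both lower in the cortex, by an LFC of −0.73 and −0.86, with −0.04 and −0.11 in the cerebellum. Cplx2 was most like Sptb, the gene of beta-spectrin (0.982), and Lyst (0.981), and Unc13a was like Mib1 (0.975). Cplx1 was most like Adamts8 (0.975) and Igfbp4 (0.952), and Vamp2 like Cyth2 (0.958) and Ncoa6 (0.916).

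For the members lower in the SCA1 KI cerebellum, a shared genotype difference enters the likeness itself. Vamp1 was most like Adssl1 (r = 0.983) and Nrsn1 (0.982), with cerebellar LFCs of −0.39 and −0.73. Stx1a was most like Ccdc65 (0.969) and 1110032F04Rik (0.967), with −0.45 and −1.48, and Cplx3 like the exchanger gene Slc24a4 (0.951) and the potassium channel gene Kcns3 (0.944), with −1.19 and −0.95. Unc13c was most like Barhl2 (0.978) and Nrp2 (0.929), which had cortical LFCs of −0.41 and −0.07.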
